A study of Mus musculus with 2 samples.

Results

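Glycinergic inhibitory neurons of the injured mouse spinal cord were taken as the nuclei that carried RNA of Slc6a5, the neuronal glycine transporter (GlyT2), and no RNA of Slc17a6, the vesicular glutamate transporter of most spinal excitatory neurons. A barcode, the sequence tag that stands for 1 nucleus, was counted when it held at least 2 UMIs (individually tagged RNA molecules) over Gad1, Gad2, Slc6a5 and Slc32a1 together. At least 1 of these UMIs had to be Slc6a5. No Slc17a6 UMI was allowed, and at most 1 UMI over Pkd2l1 and Pkd1l2, which mark neurons that contact the cerebrospinal fluid. This gave 698 of 23814 barcodes: 547 of 16362 in the lesion core library and 151 of 7452 in the distal library. They were set against the 175 core and 88 distal barcodes with at least 2 Slc17a6 UMIs, and against 241 core and 96 distal barcodes of other inhibitory neurons. The latter held at least 2 UMIs over Gad1, Gad2 and Slc32a1 but none of Slc6a5 or Slc17a6, with the same limit on Pkd2l1 and Pkd1l2. All 3 classes were thus chosen by the UMI counts of these 7 genes, and no test was made on them.

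The nuclei came from iNeuroD1GFP mice, a transgenic line of a study that re-examines the conversion of glia into neurons by the transcription factor NeuroD1. Mice were injured in the spinal cord at postnatal day 60, given tamoxifen at 100 mg/kg per day on days 5 to 8 after injury, and killed on day 10. The label of both samples gives an age of 8 weeks and male sex. Cords of 3 mice were divided into a lesion core and a distal region, which the extraction protocol calls peri-injury, and frozen-tissue nuclei were sequenced with the 10x 3′ method, 1 library per region. Whether the mice were pooled was not stated. Injury, tamoxifen and the transgene were shared by both libraries, so no uninjured, untreated or transgene-free nuclei were compared. The cell type that drives the inducible transgene was not given in the sources used here.

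Glycinergic neurons release glycine, often together with GABA, and are most of all known from the spinal cord and brainstem. Slc6a5 recovers glycine at the terminal, Slc32a1 (VIAAT) loads glycine and GABA into vesicles, and Gad1 and Gad2 make GABA from glutamate. Released glycine opens chloride channels built from Glra subunits and Glrb, which gephyrin (Gphn) holds at the synapse. In development most dorsal inhibitory neurons of the cord pass through a Pax2-positive stage, whereas many dorsal excitatory neurons depend on Lmx1b and Tlx3.

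The libraries held 30469263 core and 19049572 distal UMIs, with a median of 1303 and 1743 per barcode. The glycinergic barcodes were deeper than this, with a lowest, median and highest count of 721, 3193 and 24715 UMIs in the core and of 754, 5241 and 35622 in the distal library. Their sums held 2146550 and 960516 UMIs. The Slc17a6 barcodes had medians of 3386 and 6147 UMIs, and the other inhibitory barcodes 2583 and 4217. Of 38 barcodes shared by the libraries, 2 were glycinergic in either of them. Levels below are CPM, the UMIs of a gene in the sum of a class scaled to a common total, with 95% Poisson intervals that cover counting error only. The UMIs are tags from 3′ ends of nuclear RNA, so levels were compared between classes and not between genes.

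The distal library went against its label. Xist, the noncoding RNA of the inactive X chromosome in females, had 0 UMIs in the 547 core glycinergic barcodes, which allows up to 1.4 CPM. The distal glycinergic barcodes held 453 Xist UMIs, or 472 CPM, in 99 of 151 barcodes (65.6%, 95% Clopper-Pearson interval 57.4 to 73.1%). RNA of the Y-linked genes Uty, Ddx3y, Kdm5d and Eif2s3y was present in 302 of 547 core barcodes (55.2%) and in 82 of 151 distal barcodes (54.3%). In the distal glycinergic class 52 barcodes held both kinds of RNA, 47 Xist only, 30 Y-linked RNA only and 22 neither. Every difference between the libraries given below therefore cannot be told apart from a difference between the animals they came from.

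Among all barcodes the glycinergic class made up 3.34% in the core (Clopper-Pearson interval 3.07 to 3.63%) and 2.03% in the distal library (1.72 to 2.37%). Among the barcodes that met 1 of the neuron rules it was 56.8% of 963 (53.6 to 60.0%) and 45.1% of 335 (39.7 to 50.6%). These intervals cover counting error, and with 1 library per region the shares had no test. By its own definition the class held Slc6a5 at 427 CPM (400 to 455) in the core and 293 CPM (259 to 329) in the distal library, against 50.5 and 24.4 CPM in the Slc17a6 barcodes. Gad1 stood at 89.0 and 71.8 CPM, Gad2 at 115 and 105 CPM and Slc32a1 at 22.4 and 16.7 CPM. These values describe how the class was cut and were not tested. The gene Slc6a5 (ENSMUSG00000039728) lies on chromosome 7 at 49910146 to 49963856 on the plus strand of GRCm38.

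Most members stood close to the limit of the rule. In the core 283 of 547 barcodes (51.7%) carried exactly 1 Slc6a5 UMI, 193 carried 2 and 71 (12.98%) carried 3 or more, up to 6. In the distal library 72 of 151 (47.7%) carried 1, 57 carried 2 and 22 (14.6%) carried 3 or more, up to 15. RNA of a GABA-making enzyme, Gad1 or Gad2, was found beside Slc6a5 in 330 core barcodes (60.3%) and 104 distal barcodes (68.9%). Slc32a1 was found in 45 and 16, and 185 core (33.8%) and 38 distal barcodes (25.2%) had Slc6a5 as the only one of the 4 inhibitory genes. At this depth the absence of a Gad UMI does not separate purely glycinergic from mixed neurons. Exactly 2 UMIs over the 4 genes were held by 365 core and 78 distal members, while 1040 core and 178 distal barcodes with 1 Slc6a5 UMI missed the rule by 1 UMI. Pax2 was at 130 CPM in core members with exactly 2 UMIs, 116 CPM in those with 3 or more and 102 CPM in the barcodes just outside. The distal values were 104, 90.3 and 91.0 CPM. Other genes differed more across the limit in the distal library. Ebf2 was at 91.0 and 98.98 CPM in members and 203 CPM just outside, Esrrg at 736 and 700 CPM against 451 CPM, and Cacna2d3 at 1118 and 992 CPM against 788 CPM. A further 78 core and 25 distal barcodes met the Slc6a5 condition but also held Slc17a6. Of the Slc17a6 barcodes, 43 in the core and 17 in the distal library held at least 1 UMI of the 4 inhibitory genes. These barcodes were deep and made up much of the Slc17a6 sums. Without them the sums held 471929 core and 525677 distal UMIs, in place of 951267 and 860543.

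Slc6a5 RNA was not restricted to these nuclei. It was found in 10.8% of all core and 5.06% of all distal barcodes. As a comparator that should lack it, oligodendrocyte barcodes were taken, with at least 5 UMIs and at least 1% of their UMIs over Mog, Mag, Mobp, St18, Prr5l and Cldn11. Of these, 7 of 96 in the core (7.29%, median depth 1429 UMIs) and 23 of 1415 in the distal library (1.63%, median 1984) held an Slc6a5 UMI, and 1 and 3 met the glycinergic rule. A looser rule had been set first, at least 3 UMIs over these genes. Under it 160 of 1013 core (15.8%) and 270 of 5100 distal barcodes (5.29%) held an Slc6a5 UMI. It was also met by 49 core and 113 distal glycinergic members. Conversely the glycinergic sums held the same 6 oligodendrocyte genes at 309 CPM in the core and 2086 CPM in the distal library. The Slc17a6 sums held them at 463 and 3608 CPM. Oligodendrocyte RNA thus moved with both the region and the class, and its part in the results below was tested only by leaving out the barcodes richest in it. The 8 astrocyte markers summed to 1463 and 1464 CPM, of which Gpc5, a glypican gene, made up 1412 and 1246 CPM, and Gja1 and Slc7a10 were at 0 in the core. The 5 oligodendrocyte progenitor markers summed to 778 and 865 CPM, with Cspg4 at 0 in the core. The 7 microglial markers summed to 47.1 and 152 CPM, the 6 motor and cholinergic markers to 7.45 and 27.1 CPM and the 7 vascular and fibroblast markers to 13.04 and 18.7 CPM.

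Compared with the Slc17a6 barcodes, glycinergic barcodes had more RNA of inhibitory lineage factors and less of excitatory ones. Pax2 was 2.28-fold higher, Pax8 2.54-fold and Sall3 2.70-fold, whereas Lmx1b was 3.18-fold lower, Ebf2 2.49-fold and Ebf1 1.81-fold lower. Calcium channel α2δ subunits differed in both directions, with Cacna2d3 2.30-fold higher and Cacna2d1 2.88-fold lower. The test was edgeR's quasi-likelihood test on the 4 sums (class plus library), over 9255 genes and without the 7 genes of the rules, with Benjamini-Hochberg adjustment at 0.05. It called 61 genes higher (0.659% of those tested) and 126 lower (1.36%), with a median log2 ratio of -0.014 over all genes. Of the 187 calls, 184 had the same direction in both libraries. In 1 of the higher and 17 of the lower calls, 1 barcode held over 25% of a sum of the class with the higher level.

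The test had 1 residual degree of freedom, so its p-values lean on a spread shared over genes, and the libraries may share some animals. DESeq2, run on the same sums, called 7 higher and 8 lower, all 15 also called by edgeR; it gave no adjusted p for 158 of the 187. All 187 had the same direction in DESeq2. Without the filter on low genes edgeR called 0 in either direction (820 genes at an unadjusted p under 0.05). The adjusted p-values below are edgeR's unless DESeq2 is named.

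Of the 14 inhibitory lineage factors listed, 4 were abundant enough to test and 3 were higher, with a list median of 1.26 log2. Pax2, a paired-box factor of dorsal inhibitory neurons (chromosome 19, 44756045 to 44837871, GRCm38), stood at 124 CPM (109 to 139) in the core glycinergic sum and 69.4 CPM (53.7 to 88.3) in the core Slc17a6 sum. The distal levels were 95.8 CPM (77.2 to 118) and 25.6 CPM (16.02 to 38.7). Both glycinergic sums were above both Slc17a6 sums, and the log2 ratio was 1.19 (SE 0.194, adjusted p = 6.35e-07). The ratio was 1.78 within the core and 3.75 within the distal library. Its paralog Pax8 was at 39.1 and 32.3 CPM in glycinergic barcodes against 19.97 and 6.97 CPM (log2 ratio 1.34, adjusted p = 0.00266 by edgeR). Sall3, a zinc-finger factor, was at 30.8 and 21.9 CPM against 8.41 and 11.6 CPM (log2 ratio 1.43, adjusted p = 0.0117 by edgeR). For both genes the 2 glycinergic levels lay above the 2 Slc17a6 levels. Gbx1, a homeobox factor of dorsal inhibitory neurons, was the tested member that missed the threshold, at 15.8 and 18.7 CPM against 11.6 and 5.81 CPM (adjusted p = 0.407, edgeR). Lhx5 had 22 and 7 UMIs in the glycinergic sums against 3 and 1, and Lhx1 14 and 11 against 5 and 3, too few to be tested.

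**Figure D1:**
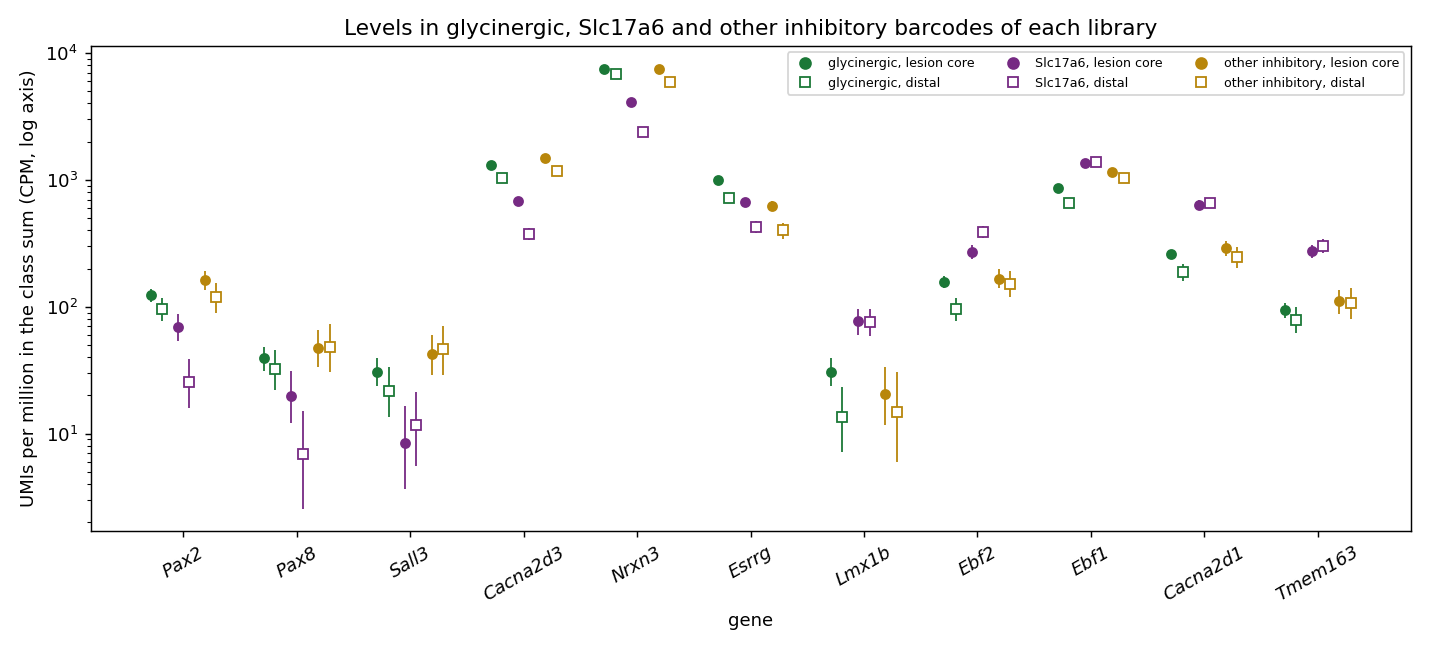
Level of 11 genes (CPM of the class sum, log axis) in glycinergic, Slc17a6 and other inhibitory barcodes, filled for the lesion core and open for the distal library, with 95% Poisson intervals. Pax2 sits at 124 and 95.8 CPM in glycinergic barcodes and 69.4 and 25.6 CPM in Slc17a6 barcodes, and the order is the opposite for Lmx1b, Ebf2 and Cacna2d1.

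The excitatory lineage list gave 4 lower of 5 tested members (21 listed; list median -0.86 log2). Lmx1b, the LIM-homeobox factor of dorsal excitatory neurons, was at 30.8 CPM (23.8 to 39.1) and 13.5 CPM (7.21 to 23.1) in glycinergic barcodes and at 76.7 and 75.5 CPM in Slc17a6 barcodes. The log2 ratio was -1.67 (SE 0.227, adjusted p = 2.96e-10), and the ratio of CPM was 0.401 within the core and 0.179 within the distal library. Ebf2, of the COE family of helix-loop-helix factors, was at 157 and 95.8 CPM against 270 and 391 CPM, with a log2 ratio of -1.32 (adjusted p = 4.63e-16 by edgeR). Ebf1 was at 859 and 652 CPM against 1358 and 1371 CPM, and it was also lower in DESeq2 (adjusted p = 2.21e-04). Ebf3 was at 226 and 124 CPM against 331 and 224 CPM (log2 ratio -0.68). The remaining tested member, Maf, did not pass. Among excitatory peptides and markers 1 of 3 tested was lower, the copine Cpne4 (log2 ratio -1.06). Tlx3 had 3 and 0 UMIs in the glycinergic sums, and Tac2, which encodes neurokinin B, 6 and 3 against 8 and 6.

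Genes of the calcium channel α2δ family, auxiliary subunits that carry channels to the membrane, differed in opposite directions. Cacna2d3 (chromosome 14, 28904943 to 29721864) was at 1317 CPM (1269 to 1367) in core and 1042 CPM (979 to 1109) in distal glycinergic barcodes, against 678 and 377 CPM. The ratio was 1.94 within the core and 2.77 within the distal library, and both tools called it (adjusted p = 6.20e-15 by edgeR and 2.34e-07 by DESeq2). Cacna2d1 (chromosome 5, 15934691 to 16374511), the binding site of gabapentin drugs, was at 259 and 186 CPM against 636 and 658 CPM. Its log2 ratio was -1.53 (adjusted p = 2.40e-24 by edgeR and 2.63e-10 by DESeq2). No level of Cacna2d3 or Cacna2d1 overlapped between the glycinergic and Slc17a6 classes. The pattern was shared by the other inhibitory barcodes, with Cacna2d3 at 1482 and 1171 CPM and Cacna2d1 at 289 and 245 CPM. Neither gene passed against that class (adjusted p = 0.429 and 0.438 by edgeR). Cacna2d3 was named after its values were seen, outside the naming rule. Lrtm1, Gm48003 and Gm48006, which lie within Cacna2d3 on the opposite strand, were also higher (log2 ratios 1.45, 1.69 and 1.57). The counting is not stated to use strand, so whether their reads and those of Cacna2d3 were told apart is not known. Gm48003 was at 6.31 and 4.65 CPM in the Slc17a6 sums, so it met the mean of 10 CPM only through the glycinergic sums.

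Among the genes with the largest ratios in favour of the glycinergic class was Cdh3 (P-cadherin), at 20.96 and 20.8 CPM against 4.21 and 3.49 CPM (log2 ratio 2.40, adjusted p = 4.07e-04 by edgeR). Its glycinergic levels were nearly the same in both libraries. The other inhibitory barcodes held Cdh3 at 38.5 and 29.6 CPM, and the difference from them did not pass (adjusted p = 0.302 by edgeR). The Slc17a6 sums held only 4 and 3 UMIs of Cdh3, so it met the mean of 10 CPM only through the glycinergic sums, where it was high. Slc30a3 (ZnT3), which loads zinc into synaptic vesicles, was at 31.7 and 35.4 CPM against 12.6 and 12.8 CPM (log2 ratio 1.39, adjusted p = 0.00332 by edgeR). Nox4, an NADPH oxidase, was at 26.6 and 24.99 CPM against 9.46 and 8.13 CPM (log2 ratio 1.54), and was also under 10 CPM in both Slc17a6 sums. Gm14204 was at 49.9 and 49.97 CPM against 19.97 and 12.8 CPM (log2 ratio 1.57). It is annotated as a processed transcript at chromosome 2, 158595472 to 158610723, on the minus strand, 44 bases from Slc32a1, a gene of the rule. It is therefore not independent of how the members were chosen. Gm29536 also passed (log2 ratio 2.30), but 88.9% of its distal glycinergic UMIs came from 1 barcode.

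In the other direction D130009I18Rik, a long intergenic noncoding RNA on chromosome 14, was at 28.4 and 1.04 CPM against 115 and 77.9 CPM, a log2 ratio of -2.50 (adjusted p = 6.77e-24 by edgeR). D130079A08Rik, another noncoding RNA 2340 bases from Pou4f1, was at 13.5 and 2.08 CPM against 43.1 and 38.4 CPM. Pou4f1 encodes a POU factor of sensory and dorsal excitatory neurons. Tmem163, a zinc transporter of synaptic vesicles, was at 94.1 and 79.1 CPM against 273 and 303 CPM (log2 ratio -1.70, adjusted p = 2.60e-25 by edgeR). The transcriptional regulator Lmo3 and the membrane protein gene Tmem132c each had a log2 ratio of -1.32. All of these were lower in glycinergic barcodes within each library.

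**Figure D2:**
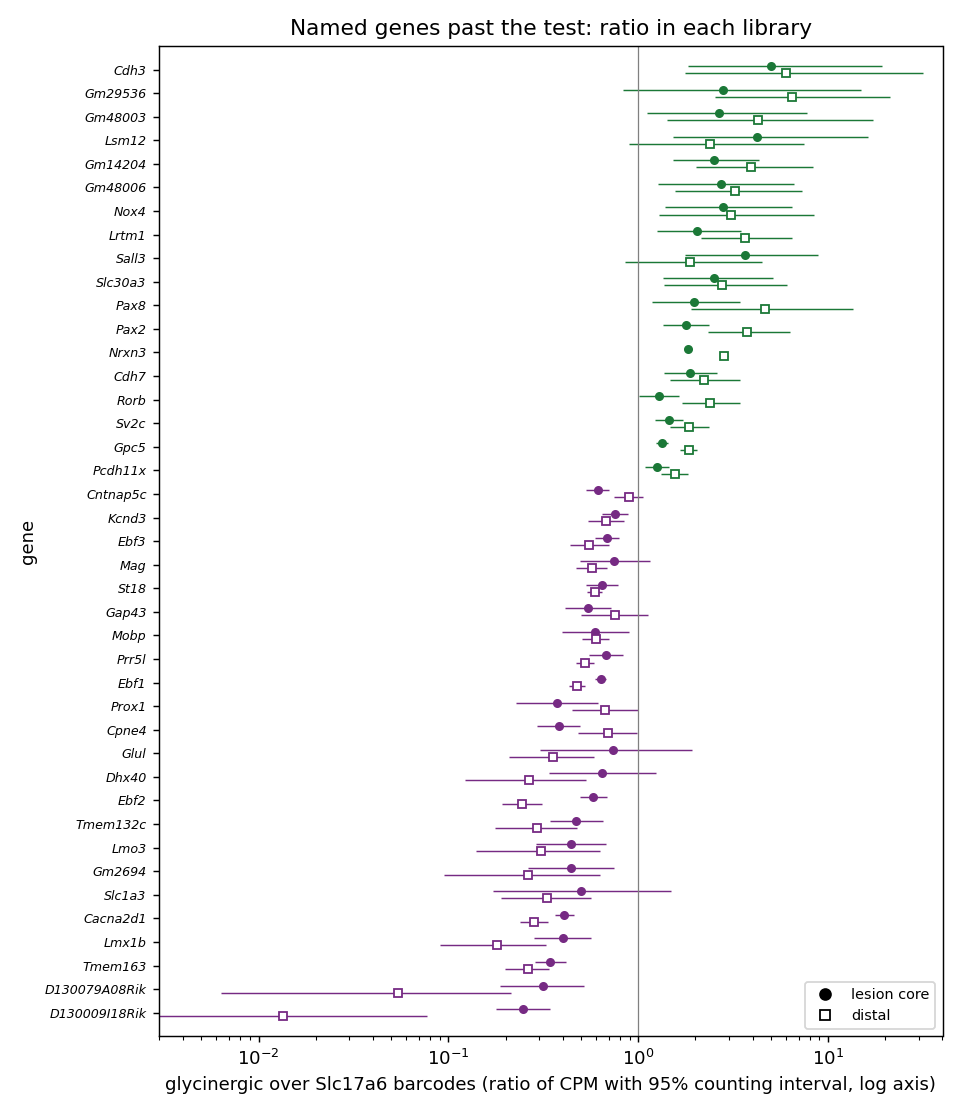
Ratio of glycinergic to Slc17a6 levels (log axis, 95% counting intervals) for 41 named genes that passed the test, filled for the lesion core and open for the distal library. The 18 higher and 23 lower genes mostly keep their side of 1 in both libraries, with wider intervals in the distal library, where the class holds 151 barcodes.

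The machinery of inhibitory transmission outside the rule did not separate these classes at this depth. None of the 7 tested glycine receptor and scaffold genes passed (list median -0.04 log2). Glra1, the main adult glycine receptor subunit, was at 292 and 246 CPM in glycinergic barcodes against 323 and 228 CPM (adjusted p = 0.977, edgeR). The β subunit gene Glrb was at 123 and 118 CPM against 105 and 122 CPM, and Gphn at 716 and 730 CPM against 744 and 905 CPM. Glra2 and Glra3 did not pass either (log2 ratios -0.22 and -0.23). None of 12 tested GABA receptor subunits passed (list median -0.13 log2). Slc6a9, the mainly glial glycine transporter GlyT1, was at 22.8 and 38.5 CPM against 22.1 and 54.6 CPM. The chloride exporter Slc12a5 (KCC2) was at 148 and 104 CPM against 167 and 90.6 CPM (adjusted p = 0.975, edgeR). Among 9 tested genes of GABA and glycine handling 1 was lower, Glul (log2 ratio -1.18), the glutamine synthetase of astrocytes. Of its distal Slc17a6 UMIs 29.3% came from 1 barcode, and within the core the interval of its ratio included 1 (0.303 to 1.91).

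Synaptic adhesion and excitability genes gave a few calls. Nrxn3, a presynaptic neurexin, was at 7492 and 6780 CPM in glycinergic barcodes against 4088 and 2405 CPM, and both tools called it (adjusted p = 6.45e-12 by edgeR and 0.011 by DESeq2). The list of 17 tested adhesion genes had 1 other call, Cntnap5c, which was lower (log2 ratio -0.46). Of 17 tested cadherin genes Cdh7 (1.86-fold in the core and 2.23-fold in the distal library) and Pcdh11x (log2 ratio 0.48) were higher. Sv2c, a vesicle glycoprotein, was 1.61-fold higher, the only call among 16 release genes. Kcnd3, an A-type potassium channel, was the only call among 20 potassium channel genes (log2 ratio -0.48). None of 21 glutamate receptor genes passed. A few more genes were called higher by both tools and are named after their values were seen: Esrrg, an orphan nuclear receptor (1003 and 714 CPM against 669 and 424), the serotonin receptor gene Htr2c (680 and 703 CPM against 479 and 356) and the neurexin ligand gene Nxph1 (940 and 1062 CPM against 665 and 532).

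Subtype genes were largely below what these nuclei could show. Rorb, a nuclear receptor of dorsal inhibitory and other neurons, was the 1 call among 8 tested dorsal inhibitory markers, at 128 and 128 CPM against 99.9 and 53.5 CPM (adjusted p = 0.00431, edgeR). Nos1 was at 15.8 and 13.5 CPM against 9.46 and 6.97 CPM and Foxp2, a factor of V1 neurons, at 47.1 and 39.6 CPM against 37.8 and 25.6 CPM, and neither passed. Pvalb had 27 and 6 UMIs against 2 and 2, Npy 6 and 10, Pdyn 13 and 6 and Gal 0 and 1. En1 had 1 and 0, Gata3 4 and 3 and Dmrt3 1 and 0, so neither dorsal peptide classes nor ventral V1, V2b or dI6 classes were resolved.

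Genes of neuronal age and injury gave 1 call. None of 18 mature neuron genes and none of the 4 tested immature or proneural genes passed. Dcx, a microtubule protein of young neurons, was at 54.5 and 62.5 CPM against 67.3 and 59.3 CPM (adjusted p = 0.915, edgeR). Neurod1 itself had 7 UMIs (3.26 CPM) in core and 9 UMIs (9.37 CPM) in distal glycinergic barcodes. It was found in 7 of 547 (1.28%) and 8 of 151 (5.30%), beside 0 of 96 and 26 of 1415 oligodendrocyte barcodes (1.84%). At an equal depth of 1000 UMIs it was found in 2 of 516 (0.388%) and 1 of 150 (0.667%, interval 0.0169 to 3.66%). Oligodendrocyte barcodes held it in 0 of 78 and 7 of 1318 (0.531%). These counts were too few to tell the glycinergic class from the oligodendrocyte level. The features hold no GFP or Cre, so transgenic and native Neurod1 RNA cannot be told apart. Of 6 tested axon injury genes 1 was lower, the growth cone gene Gap43, at 55.4 and 48.9 CPM against 102 and 65.1 CPM (adjusted p = 0.0206, edgeR). Atf3, a marker of axotomy, had 3 and 1 UMIs.

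Oligodendrocyte RNA accompanied this comparison. Of 8 oligodendrocyte genes 5 were lower in glycinergic than in Slc17a6 barcodes (Prr5l, Mobp, St18, Mag and Mbp, log2 ratios -0.77 to -0.61), and the 8 summed to 511 against 755 CPM in the core and 3602 against 5843 CPM in the distal library. Among barcodes with under 0.15% of their UMIs in these genes, 521 core and 91 distal members, 40 genes were higher and 62 lower, and 72 of the 187 calls were made again.

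Shares of nuclei with a marker were compared at an equal depth of 1000 UMIs per barcode, which left out 31 core members and 1 distal member with fewer. Pax2 was found in 12.02% of 516 core glycinergic barcodes (Clopper-Pearson interval 9.34 to 15.1%), in 6.06% of Slc17a6 barcodes and in 2.56% of oligodendrocyte barcodes. In the distal library the shares were 11.3%, 2.30% and 0.228%. Before thinning they were 33.3%, 22.3% and 2.08% in the core and 37.8%, 12.5% and 0.777% in the distal library. Cacna2d3 was found in 66.1% and 55.3% of glycinergic barcodes, 38.8% and 18.4% of Slc17a6 barcodes and 34.6% and 9.03% of oligodendrocyte barcodes. For Lmx1b the thinned shares were 4.07% and 0.667% in the glycinergic class against 10.9% and 11.5%. The distal share did not exceed the 0.683% of oligodendrocyte barcodes. It was 1 of 150 barcodes (0.0169 to 3.66%), too few to tell it from that level. Before thinning Lmx1b was in 6.62% of distal glycinergic, 35.2% of Slc17a6 and 1.56% of oligodendrocyte barcodes, which differed in depth. Ebf2 was found in 11.8% and 9.33% against 23.0% and 39.1%, above the 3.85% and 4.02% of oligodendrocyte barcodes.

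**Figure D3:**
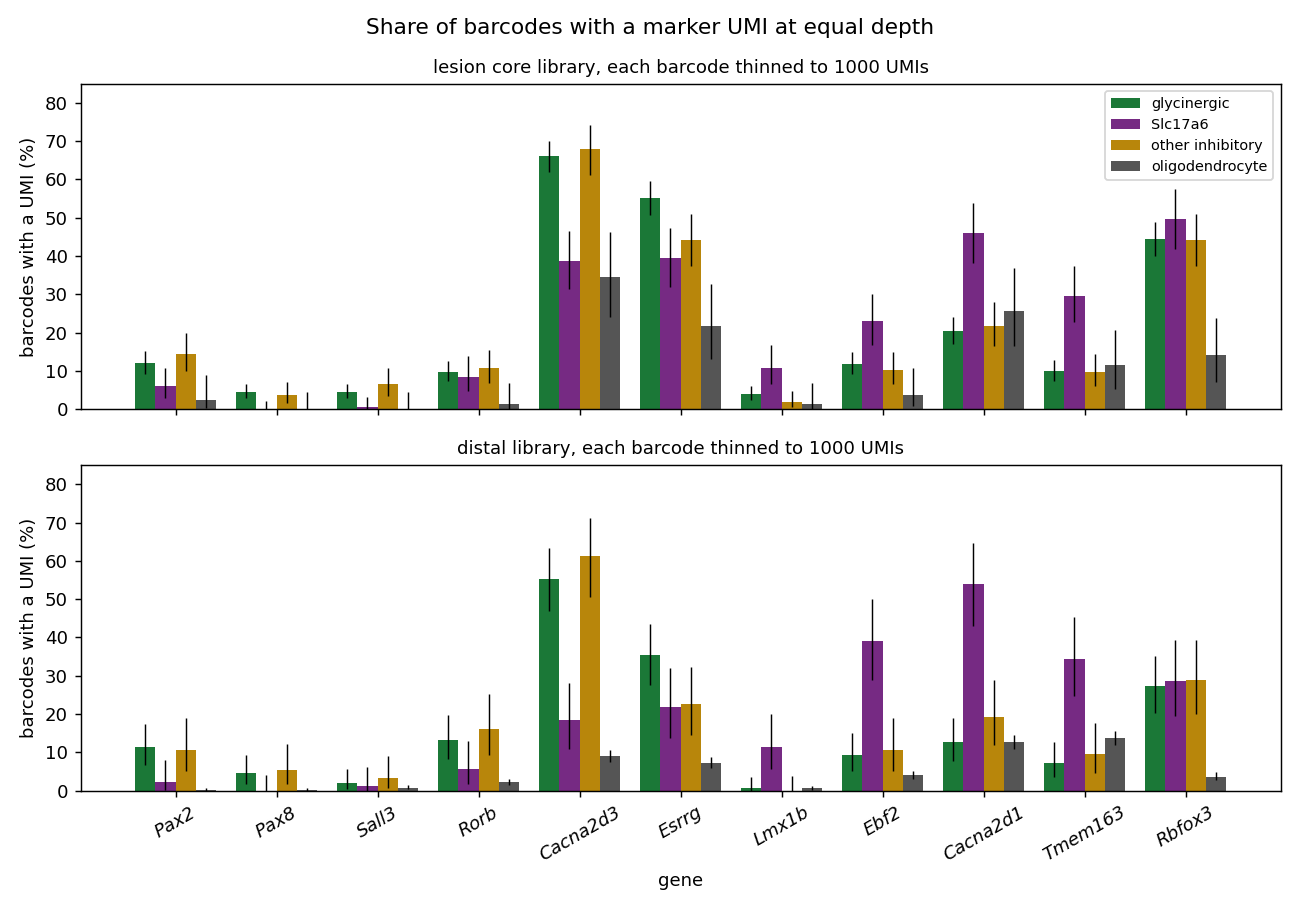
Percent of barcodes with at least 1 UMI of each gene after thinning every barcode to 1000 UMIs, with 95% Clopper-Pearson intervals, for glycinergic, Slc17a6, other inhibitory and oligodendrocyte barcodes of the lesion core (top) and distal (bottom) libraries. Pax2 reaches 12.02% and 11.3% of glycinergic barcodes and Lmx1b 10.9% and 11.5% of Slc17a6 barcodes.

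The comparison with the other inhibitory barcodes asked what accompanies Slc6a5 among inhibitory nuclei. Glycinergic barcodes had more RNA of the nuclear receptor gene Esrrg and the guidance gene Slit2, and less of the cation channel gene Trpm3 and of Stac. Inhibitory lineage factors did not separate the classes, with 0 of 4 tested members passing. Of 5 tested excitatory lineage factors 3 were lower in glycinergic barcodes, among them Ebf1 (log2 ratio -0.53) and Ebf3 (-0.66). The same edgeR test over 9249 genes called 83 higher (0.897%) and 104 lower (1.12%), with a median log2 ratio of -0.003, and all 187 kept their direction in both libraries. DESeq2 called 5 higher and 8 lower, all 13 also called by edgeR. The other inhibitory class had to hold 2 Gad or Slc32a1 UMIs and was shallower (medians above).

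Esrrg was at 1003 and 714 CPM in glycinergic barcodes against 620 CPM (566 to 678) and 399 CPM (344 to 461) in other inhibitory barcodes. The log2 ratio was 0.75 (SE 0.092), with an adjusted p of 1.31e-12 by edgeR and 0.00353 by DESeq2. It was thus above both the Slc17a6 and the other inhibitory class in each library. Slit2, a repulsive guidance cue, was at 410 and 454 CPM against 257 and 249 CPM (adjusted p = 6.24e-09 by edgeR and 0.0399 by DESeq2). Snrpn, of an imprinted locus, was at 191 and 201 CPM against 88.6 and 99.3 CPM (adjusted p = 5.16e-09 by edgeR and 0.046 by DESeq2). It shares its locus and strand with Snurf, between which reads could be split. Slc30a3 was higher here too, at 31.7 and 35.4 CPM against 17.98 and 8.45 CPM (adjusted p = 0.0466, edgeR), as was Sv2c (1.46-fold). Adamtsl5 had the largest ratio among the named genes, 26.1 and 16.7 CPM against 3.85 and 2.11 CPM, but with 3 and 1 UMIs in the other inhibitory sums. Etl4 and Cdh18 were called higher by both tools (log2 ratios 0.57 and 0.53). Etl4, Slit2 and Esrrg were named after their values were seen.

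Trpm3, a steroid- and heat-sensitive cation channel, was at 1033 CPM (991 to 1077) and 943 CPM (883 to 1007) against 1863 and 1752 CPM. This was a log2 ratio of -0.87 (adjusted p = 8.55e-24 by edgeR and 4.74e-07 by DESeq2), and the intervals did not overlap in either library. Stac, a calcium channel adaptor, was at 116 and 87.5 CPM against 234 and 213 CPM (adjusted p = 8.16e-12 by edgeR and 0.0119 by DESeq2). Rgs9, a regulator of G protein signalling, was at 19.1 and 21.9 CPM against 61.6 and 52.8 CPM (log2 ratio -1.53). The R-type calcium channel gene Cacna1e was at 565 and 370 CPM against 801 and 733 CPM. Trpm3 and Cacna1e were named after their values were seen.

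Several receptor and channel lists leaned towards the other inhibitory class. Of 21 glutamate receptor genes 5 were lower in glycinergic barcodes (Gria1, Grik3, Grm3, Grm5 and Grm8, log2 ratios -0.54 to -0.30) and 1, Grid1, was higher. Of 20 potassium channel genes 4 were lower (Kcnt2, Kcnq5, Kcnb2 and Kcnq3), beside 1.12% of all genes. Scn8a, a sodium channel of the axon initial segment, was higher (log2 ratio 0.38) and the fast-spiking potassium channel gene Kcnc2 was lower (-0.44). Rorb was above the Slc17a6 barcodes but below the other inhibitory barcodes, at 128 and 128 CPM against 157 and 228 CPM (log2 ratio -0.52). None of 7 glycine receptor genes passed, and 1 of 11 GABA receptor subunits was lower, Gabrg3 (log2 ratio -0.39). Pax2 was at 162 and 118 CPM in the other inhibitory barcodes, and the difference from the glycinergic class did not pass (log2 ratio -0.36, adjusted p = 0.305 by edgeR).

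Within the glycinergic class, core and distal nuclei differed in genes of position and of glia. RNA of Hoxc8 and Hoxc9 was higher in the core, and oligodendrocyte and microglial RNA was lower. Pax2, the glycine receptor genes and Gphn were not past the fold used here. With 1 library per region there was no test. A gene was counted as past the fold when the CPM differed at least 1.5-fold in either direction and the exact 95% interval of the ratio excluded 1. Of 9816 genes 521 were higher in the core (5.31%) and 1218 lower (12.4%), with a median log2 ratio of -0.06. In Slc17a6 barcodes 746 (8.31%) and 1210 (13.5%) of 8976 were. Scaling by TMM shifted the ratios by a median of 0.14 log2, to 934 higher and 872 lower, so that 51.7% of the genes past the fold were higher in place of 29.96%.

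Hox genes of paralog groups 8 to 11, which in general act further down the cord than groups 4 to 7, were measured for 8 of 13 listed members. Hoxa10, Hoxb9, Hoxc10 and Hoxd11 reached the limit on low levels only through the core, where they were high. Hoxd11 had 44 UMIs in the core and 0 in the distal sum, at least 6.56-fold higher against a floor of 3 counts per library. Hoxa10 had 22 and 0 UMIs, at least 3.28-fold higher against the same floor. Hoxc10 was at 41.0 and 5.21 CPM, a ratio of 7.88 (3.25 to 24.9), Hoxb9 at 16.3 and 5.21 CPM, Hoxc8 at 197 and 94.7 CPM and Hoxc9 at 77.3 and 38.5 CPM. Hoxa9 (1.18) and Hoxb8 (1.48) were not past the fold. The Slc17a6 barcodes had Hoxc8 at 181 and 72.1 CPM and Hoxc9 at 85.2 and 36.0 CPM, so the contrast was not particular to inhibitory nuclei. Of groups 4 to 7, 3 of 9 were past the fold (Hoxc5, Hoxb6 and Hoxc4), or 5 under TMM scaling, and Hoxb6 turned to -0.43 log2 with at most 1 glial UMI per barcode. Level along the cord cannot be told apart from distance to the lesion.

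Among inhibitory transmission genes few were past the fold. None of the 7 glycine receptor and scaffold genes was past the fold: the ratio was 1.19 for Glra1 (1.02 to 1.39), 1.04 for Glrb (0.832 to 1.31) and 0.981 for Gphn (0.896 to 1.07), which TMM scaling turned above 1. None of 6 inhibitory lineage factors was past the fold, with Pax2 at 1.29 (1.01 to 1.65) and, in Slc17a6 barcodes, at 2.71 (1.65 to 4.62). Of 13 measured GABA receptor subunits Gabbr2 was higher (1.87, 1.60 to 2.18) and Gabrg1 lower (0.395, 0.184 to 0.840). Gabrg1, at 6.99 CPM in the core, reached the limit on low levels only through the distal library. Slc12a5 was at 1.42 (1.13 to 1.79). Slc6a9 was lower in the core, at 0.593 (0.379 to 0.934) but not past the fold under TMM scaling, and the chloride importer Slc12a2 (NKCC1), abundant in glia, at 0.350 (0.276 to 0.444). Their values in Slc17a6 barcodes were 0.404 and 0.267, beside the lower oligodendrocyte RNA of both classes in the core.

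Some excitatory lineage factors and channels were higher in core glycinergic nuclei. Of 5 excitatory lineage factors 4 were past the fold: Lmx1b 2.27 (1.24 to 4.49), Maf 1.86, Ebf3 1.82 and Ebf2 1.63. With at most 1 glial UMI per barcode, which left 14 distal members, Lmx1b turned to -0.97 log2 and Ebf2 to -0.13 log2. In Slc17a6 barcodes Lmx1b was at 1.02 and Ebf2 at 0.692, and that difference between classes was not tested. Of 15 fast-spiking channel genes 5 were higher, Scn4b, Kcns3, Kcnc4, Kcnab3 and Kcna2, and Kcna1 was lower at 0.523. The sums of Scn4b were 28 and 2 UMIs. Syt2, the fast calcium sensor of release, was at 363 and 166 CPM, a ratio of 2.19 (1.85 to 2.62) in glycinergic and 2.75 in Slc17a6 barcodes. Kcnt1, a sodium-activated potassium channel, was 1.85 and 1.88. Casz1 and Glis1, zinc-finger genes, were each at 2.69 in glycinergic barcodes and at 0.959 and 1.37 in Slc17a6 barcodes. Rbfox3 (NeuN) was at 1.61 and 2.21 and Meg3 at 1.61 and 2.02, among 4 of 18 mature neuron genes past the fold (8 under TMM scaling).

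On the other side, all 8 oligodendrocyte genes were lower in core glycinergic nuclei. Of the astrocyte genes Gfap, Slc1a2 and Slc1a3 were lower, while Gpc5, which made up most of the astrocyte sum, was at 1412 and 1246 CPM. Mobp was at 28.0 and 260 CPM, a ratio of 0.107 (0.0796 to 0.143), and at 0.109 in Slc17a6 barcodes. Gfap was at 0.0716 and Ptgds at 0.0509. Some glial genes reached the limit on low levels only through the distal library, where they were high. Among them were Gfap, Cldn11 and the microglial gene Cx3cr1, at 3.73, 8.39 and 6.52 CPM in the core. Prox1, Nfix and Nfib, 3 of the 5 measured late birth-order factors, were lower (0.305, 0.426 and 0.662, the last not past the fold under TMM scaling), and so was the axon growth gene Klf7 (0.576). Dcx was at 0.873 (0.634 to 1.21). In the barcodes with little oligodendrocyte RNA the genes lower in the core numbered 633 in place of 1218, and Klf7 turned to 0.17 log2. With at most 1 glial UMI, Nfix turned to 1.07 log2, Nfib to 1.13 and Klf7 to 1.08. Of the single ratios named between regions, 58 stayed within their intervals with little oligodendrocyte RNA, 18 moved and 1 reversed. With at most 1 glial UMI 11 stayed, 39 moved and 12 reversed.

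**Figure D4:**
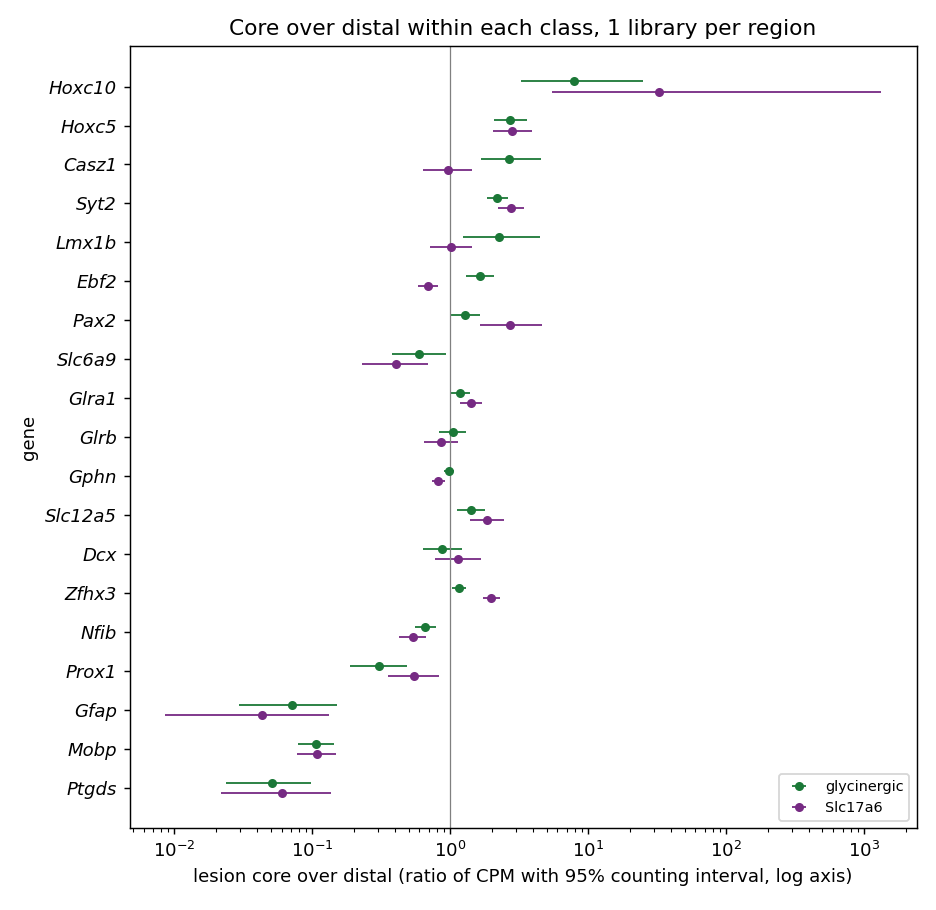
Core over distal ratio of CPM (log axis, exact 95% intervals) in glycinergic and in Slc17a6 barcodes, 1 library per region. Mobp lies at 0.107 in glycinergic barcodes, while Glra1, Glrb and Gphn lie between 0.981 and 1.19. Hoxc10, at 7.88, reached the limit on low levels only through the core, where it was high.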

How the data were processed

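The deposited files hold UMI counts per gene and barcode, made by the authors with Cell Ranger 7.1.0 per the file headers; the submitters' processing notes also name Seurat and a human and a mouse (mm10) build with no role. Counting annotation and strand use are not given in the sources used here. The 23814 deposited barcodes (at least 500 UMIs each) and 32285 features were used, with no further filter and no doublet caller. UMIs were summed per library and class with Python 3.11.15 and scipy 1.17.1. Class comparisons were fitted with edgeR 4.0.16 (TMM, quasi-likelihood, class plus library, 1 residual degree of freedom) on genes with a mean of at least 10 CPM and 20 UMIs, and with DESeq2 1.42.0 as an alternative, in R 4.3.3. On simulated sums for glycinergic against Slc17a6 barcodes, 31% of genes changed 2-fold (1.0 log2) were called and 5% of those changed 1.5-fold. The simulation used a fixed spread for all genes and no difference between the libraries, so these percentages hold for that setting only. The fold threshold between regions was 1.5. Shares were taken after thinning to 1000 UMIs.

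Named genes were the 10 largest ratios per direction among calls (8 between regions), with at least 50 UMIs and the same direction in both libraries, at most 4 members per direction of each of 32 gene lists (3 between regions), and a set of inhibitory, excitatory and injury genes whatever their values. The members, lists and tests were chosen with earlier results of these data known. Gene positions are from GENCODE M21 (GRCm38), which holds 32158 of the 32285 features. Some results are not reported here.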

Additional observations from a re-analysis of the deposited data

Results flagged for a closer look

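Zfhx3, a factor of early-born spinal neurons, stood on opposite sides of the Slc17a6 class in the 2 libraries. The glycinergic over Slc17a6 ratio of CPM was 0.721 in the lesion core (512 against 711 CPM) and 1.24 in the distal library (443 against 357 CPM), and the difference between the ratios was not tested. The glycinergic level changed less between the libraries (1.16-fold) than the Slc17a6 level (1.99-fold).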

How the results depend on the processing

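Limits: 1 library per region, no stated replicate, 1 residual degree of freedom and shallow nuclei, so genes under about 10 CPM could not be compared. The class fits compared classes within each library, with the library as a term. No other paired analysis was possible because the labels give no replicate numbers, and leaving out a library left values without a test. Of the 187 calls against Slc17a6 barcodes, 118 were made again with at least 2 Slc6a5 UMIs, 186 with at least 1000 UMIs, 68 under the 95th percentile of UMIs and 187 with library totals or DESeq2 size factors in edgeR. Against only the Slc17a6 barcodes with no inhibitory UMI, 85 of the 187 were made again.

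Against Slc17a6 barcodes, genes higher (61) and lower (126) became 7 and 8 in DESeq2, 0 and 0 without the filter (820 genes at an unadjusted p under 0.05; DESeq2, with the filter, 152), 3 and 6 with at most 1 glial UMI and 40 and 62 with little oligodendrocyte RNA (chosen after seeing the data). Genes higher and lower were 43 and 75 against Slc17a6 barcodes with no inhibitory UMI. Mobp turned to 0.21 log2 with at most 1 glial UMI and Prr5l to 0.18 under the 95th percentile. Against other inhibitory barcodes, 83 and 104 became 5 and 8 in DESeq2, 127 and 61 without the filter, 35 and 54 under the 95th percentile, 13 and 37 with little oligodendrocyte RNA, and 0 and 0 with at most 1 glial UMI (144 genes at an unadjusted p under 0.05 by edgeR; DESeq2, on all barcodes, 124). The limit of 1 glial UMI left 14 distal members. Between regions, 521 and 1218 became 934 higher under TMM scaling, 330 and 613 under the 95th percentile and 110 and 249 with at most 1 glial UMI, and 633 lower with little oligodendrocyte RNA. With at most 1 glial UMI, core over distal log2 ratios reversed for Ebf2 (-0.13), Grm3 (0.95), Grm4 (-0.22), Hoxb6 (-0.43), Kcnn3 (-0.48), Klf7 (1.08, and 0.17 with little oligodendrocyte RNA), Lmx1b (-0.97), Nfib (1.13), Nfix (1.07), Npas4 (-0.20), Stk24 (-0.28) and Tcea2 (-0.32); the cause was not tested beyond the loss of distal nuclei. The glycinergic share was 1.61% and 1.06% with at least 2 Slc6a5 UMIs and 4.62% and 2.53% among barcodes with at least 1000 UMIs, both from fewer barcodes by construction.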

Other observations

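Birth-order factors, transcription factors that separate early-born from late-born spinal neurons, were measured in the same nuclei. After thinning to 1000 UMIs, 18.8% of core and 10.7% of distal glycinergic barcodes held early-group RNA only, and 32.6% and 46.0% held late-group RNA only. Oligodendrocyte barcodes held early-group RNA only in 2.56% and 2.73% and late-group RNA only in 44.9% and 60.3%. The late-group share of the glycinergic class was thus below that of oligodendrocyte barcodes in both libraries. Whether oligodendrocytes make late-group RNA themselves was not tested, so their share cannot serve as a background level here. Both groups were found in 23.6% and 21.3% of glycinergic barcodes, under the 48.7% and 31.9% of oligodendrocyte barcodes, and neither in 25% and 22%. Against the other inhibitory barcodes Zfhx3 and Nfia were higher by the edgeR test (log2 ratios 0.39 and 0.40) and Tcf4 was lower (-0.48). Against the Slc17a6 barcodes 0 of 4 early factors passed and 1 of 5 late factors, Prox1, was lower at 14.9 and 48.9 CPM against 39.95 and 73.2 CPM (log2 ratio -0.92, adjusted p = 0.0111, edgeR).

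The following lists gave these counts for glycinergic against Slc17a6 barcodes and then against other inhibitory barcodes. Of tested perineuronal net and matrix genes 0 of 8 and 1 of 7 passed (Bcan, higher). Of neuregulin and ErbB genes 0 of 6 passed in each, of immediate early genes 0 of 2, of Hox groups 4 to 7 0 of 9 and of Hox groups 8 to 11 0 of 5 and 0 of 7. Of 4 astrocyte genes Gpc5 was higher and Slc1a3 lower against Slc17a6 barcodes, and Gpc5 and Slc1a2 were lower against other inhibitory barcodes. Gpc5 was at 1412 and 1246 CPM against 1055 and 678 CPM (adjusted p = 4.96e-04 by edgeR and 0.0195 by DESeq2) and then against 2106 and 1940 CPM (1.16e-11 and 0.00353). Of microglial genes 0 of 7 and 0 of 5 passed, and of oligodendrocyte progenitor genes 0 of 3 in each.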
